A study of Homo sapiens with 15 samples.

Results

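Cells of the A673 Ewing sarcoma line that carried DAF, an EWS/FLI whose EWS domain is mutated, were compared with cells that carried Δ22, which has the FLI portion and no EWS domain. The members are the 3 DAF and the 3 Δ22 libraries of RNA-seq, 6 of 15 in all, chosen by their labels and compared with the replicate number as a block. All 6 received the same shRNA against EWS/FLI (the iEF shRNA) on day 1 and a 3XFLAG-tagged cDNA on day 5. Selection was in 2 µg/mL puromycin and then also in 400 µg/mL hygromycin B, and RNA was taken on day 16. DAF carries tyrosine to alanine changes in the N-terminal degenerate hexapeptide repeats of the EWS domain and keeps an intact SYGQ2 segment. The other 9 libraries serve as a scale. They are iLuc, with a luciferase shRNA and an empty vector, which keeps endogenous EWS/FLI (endo-EF), then iEF, with the EWS/FLI shRNA and an empty vector, and WT-EF, with the same shRNA and wild-type EWS/FLI cDNA, each with 3 libraries. A673 is a single line, so the libraries are repeats of 1 genetic background, and the labels do not say how the repeats of a condition were separated.

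EWS/FLI joins the low-complexity, tyrosine-rich N-terminus of EWS to the ETS DNA-binding domain of FLI. The FLI portion binds ETS sites with a GGAA core and, as a particular feature of the fusion, runs of tandem GGAA repeats (microsatellites), while the EWS domain recruits chromatin regulators that open these repeats as enhancers. Δ22 keeps the DNA-binding portion, so the comparison sets this portion with the mutated EWS domain beside the portion alone. The amount of each protein, indirect changes over the days of expression and shifts of Δ22 itself from iEF were not separated from it.

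The runs of GGAA next to 6 genes described below are shown first, because the share of genes with such a run set the genes higher in DAF apart in what follows. They were read from the GRCh37 reference genome on the strand that holds GGAA, so their length is that of the reference and not of A673. Capitals mark 2 or more tandem GGAA.
NR0B1: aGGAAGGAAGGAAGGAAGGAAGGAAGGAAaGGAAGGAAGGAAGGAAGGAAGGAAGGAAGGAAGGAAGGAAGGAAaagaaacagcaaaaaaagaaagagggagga
GSTM4: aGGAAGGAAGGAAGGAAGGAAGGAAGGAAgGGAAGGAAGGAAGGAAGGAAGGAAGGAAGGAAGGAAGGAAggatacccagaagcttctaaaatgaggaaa
FCGRT: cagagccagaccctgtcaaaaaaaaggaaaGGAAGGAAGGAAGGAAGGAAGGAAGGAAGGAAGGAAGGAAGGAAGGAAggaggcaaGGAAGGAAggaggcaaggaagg
ISM2: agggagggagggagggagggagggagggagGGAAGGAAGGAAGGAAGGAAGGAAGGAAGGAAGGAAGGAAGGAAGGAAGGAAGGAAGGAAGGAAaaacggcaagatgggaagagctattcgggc
PHOSPHO1: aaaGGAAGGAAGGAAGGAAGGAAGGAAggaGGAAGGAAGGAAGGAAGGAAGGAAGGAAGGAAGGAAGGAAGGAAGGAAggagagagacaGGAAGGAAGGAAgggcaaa
APELA: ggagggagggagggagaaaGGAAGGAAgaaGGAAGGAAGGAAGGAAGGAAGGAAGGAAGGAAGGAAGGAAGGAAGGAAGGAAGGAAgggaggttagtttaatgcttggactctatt

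The *NR0B1* run (chrX:30328845-30328948, minus strand) lies between genes, 1389 bases upstream of the annotated start, with 11 repeats in its longest uninterrupted stretch. The *GSTM4* run (chr1:110196861-110196960, plus strand) is also intergenic, 1811 bases upstream, with 10 repeats. The *APELA* run (chr4:165794468-165794583, plus strand) is intergenic, 3805 bases upstream, with 14 repeats. The other runs are within introns of the gene they are named for and downstream of its start. That of *FCGRT* (chr19:50014734-50014841, plus strand) is 4714 bases in and has 12 repeats, that of *ISM2* (chr14:77964083-77964206, plus strand) is 1015 bases in and has 16, and that of *PHOSPHO1* (chr17:47305582-47305689, minus strand) is 2514 bases in and has 12. None of the 6 overlaps an annotated exon or UTR.

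Total counts ran from 30825838 to 39098413 in Δ22 and from 28659475 to 37953589 in DAF libraries, of which 28793 genes averaged at least 1 count over the 15 libraries and were tested. Levels are given as CPM, counts scaled to library size and sequencing depth, and changes as fitted log2 fold changes with standard errors (SE) and adjusted p-values of edgeR's quasi-likelihood test over all tested genes. *FLI1*, the gene of the FLI portion, had 24.4, 32.9 and 36.2 CPM in Δ22 and 22.1, 23.6 and 27.3 CPM in DAF libraries, with the groups overlapping. The log2 change was -0.35 (SE 0.10, adjusted p = 0.128, or 0.0105 in a fit of the 6 libraries alone). These reads join the cDNA and what remained of endo-EF, which the counts do not separate. *EWSR1*, whose reads also come from the unfused gene, had 286, 267 and 301 CPM in Δ22 and 291, 293 and 321 CPM in DAF libraries (log2 change 0.08, SE 0.07, adjusted p = 0.772). Of the markers of Ewing sarcoma, *CCND1* (1241 to 2038 CPM), *STEAP1* and *PRKCB* were present in all 6 libraries, *NKX2-2* did not exceed 1.27 CPM, and *CD99* had at most 3 counts. *CD99* is pseudoautosomal and listed in an X and a Y copy, and the part of this in its level was not tested. Of 8 epithelial markers *CDH1* and *KRT5* had at most 3 counts in a library and *EPCAM* at most 8, while *KRT18* had 61.1 to 91.5 CPM and *KRT8* 9.24 to 17.8 CPM, and the list summed to 82.6 to 103 CPM in Δ22 and 85.0 to 113 CPM in DAF libraries. The lymphoid markers *CD3E* and *NKG7* had at most 1 count in a library and *MS4A1* at most 4.

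DAF cells had 273 genes higher (0.948% of the genes tested) and 109 lower (0.379%) than Δ22 cells at an adjusted p under 0.05, so that 71.5% of 382 called genes (1.33%) were higher. With a change of over 2-fold required as well, 192 genes were higher (0.667%) and 39 were lower (0.135%), and 83.1% were higher. The fit of the 6 libraries alone, again with the block, called 1411 higher (4.91%) and 1333 lower (4.64%), of which 51.4% were higher, and among these were all 382 genes in the same direction. Every 1 of the 382 moved in its direction in each of the 3 replicate sets, and 337 of them had CPM that did not overlap between the groups, against 13.1% of all tested genes. The genes were called on these same libraries, so neither figure is separate support for the calls. The median log2 change was 1.51 over the higher and -0.80 over the lower genes, beside -0.02 over all genes tested. Of the higher genes, 242 were protein coding and 18 lncRNA, and of the lower genes, 103 and 2. Without the block the 15 libraries gave 147 higher and 30 lower. With it, the counts were 125 and 37 without Δ22 replicate 1, 215 and 49 without Δ22 replicate 2, and 152 and 28 without Δ22 replicate 3. They were 264 and 49 without DAF replicate 1, 120 and 13 without DAF replicate 2, and 110 and 19 without DAF replicate 3. The median over the higher genes was 1.15, 1.31 and 1.74 on the log2(CPM + 0.1) scale in replicate sets 1, 2 and 3, and DAF replicate 1 was the lowest DAF library for 247 of the 273.

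The largest increases were in genes nearly silent in Δ22 cells, and several of them carry the GGAA runs shown above. *ISM2* (isthmin 2, a secreted protein) had 0.352, 0.756 and 0.679 CPM in Δ22 and 5.48, 20.5 and 23.6 CPM in DAF libraries (log2 change 4.69, SE 0.38, adjusted p = 4.24e-05). Each DAF library was above each Δ22 library, and the iLuc and WT-EF means were 5.39 and 7.998 CPM. *PHOSPHO1*, a phosphatase of bone mineralization, had 2.17, 4.95 and 3.29 CPM in Δ22 and 21.2, 32.9 and 40.9 CPM in DAF libraries (log2 change 3.18, SE 0.24, adjusted p = 4.24e-05). Its DAF level was in the range of iLuc and WT-EF, which averaged 23.7 and 35.6 CPM. *APELA*, a peptide ligand of the apelin receptor, had 0.352, 0.965 and 1.04 CPM in Δ22 and 3.06, 20.7 and 23.4 CPM in DAF libraries (log2 change 4.18, SE 0.54, adjusted p = 0.00120). DAF replicate 1 stood well below the other two, and the iLuc mean was 32.3 CPM. *CYP4F22*, a fatty acid hydroxylase of the skin barrier with an intronic run of 12 repeats, had 0.674, 1.62 and 0.893 CPM in Δ22 and 7.06, 12.5 and 16.0 CPM in DAF libraries (log2 change 3.45, SE 0.35, adjusted p = 0.000337). Here DAF reached part of the iLuc and WT-EF means of 54.9 and 27.5 CPM.

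**Figure D1:**
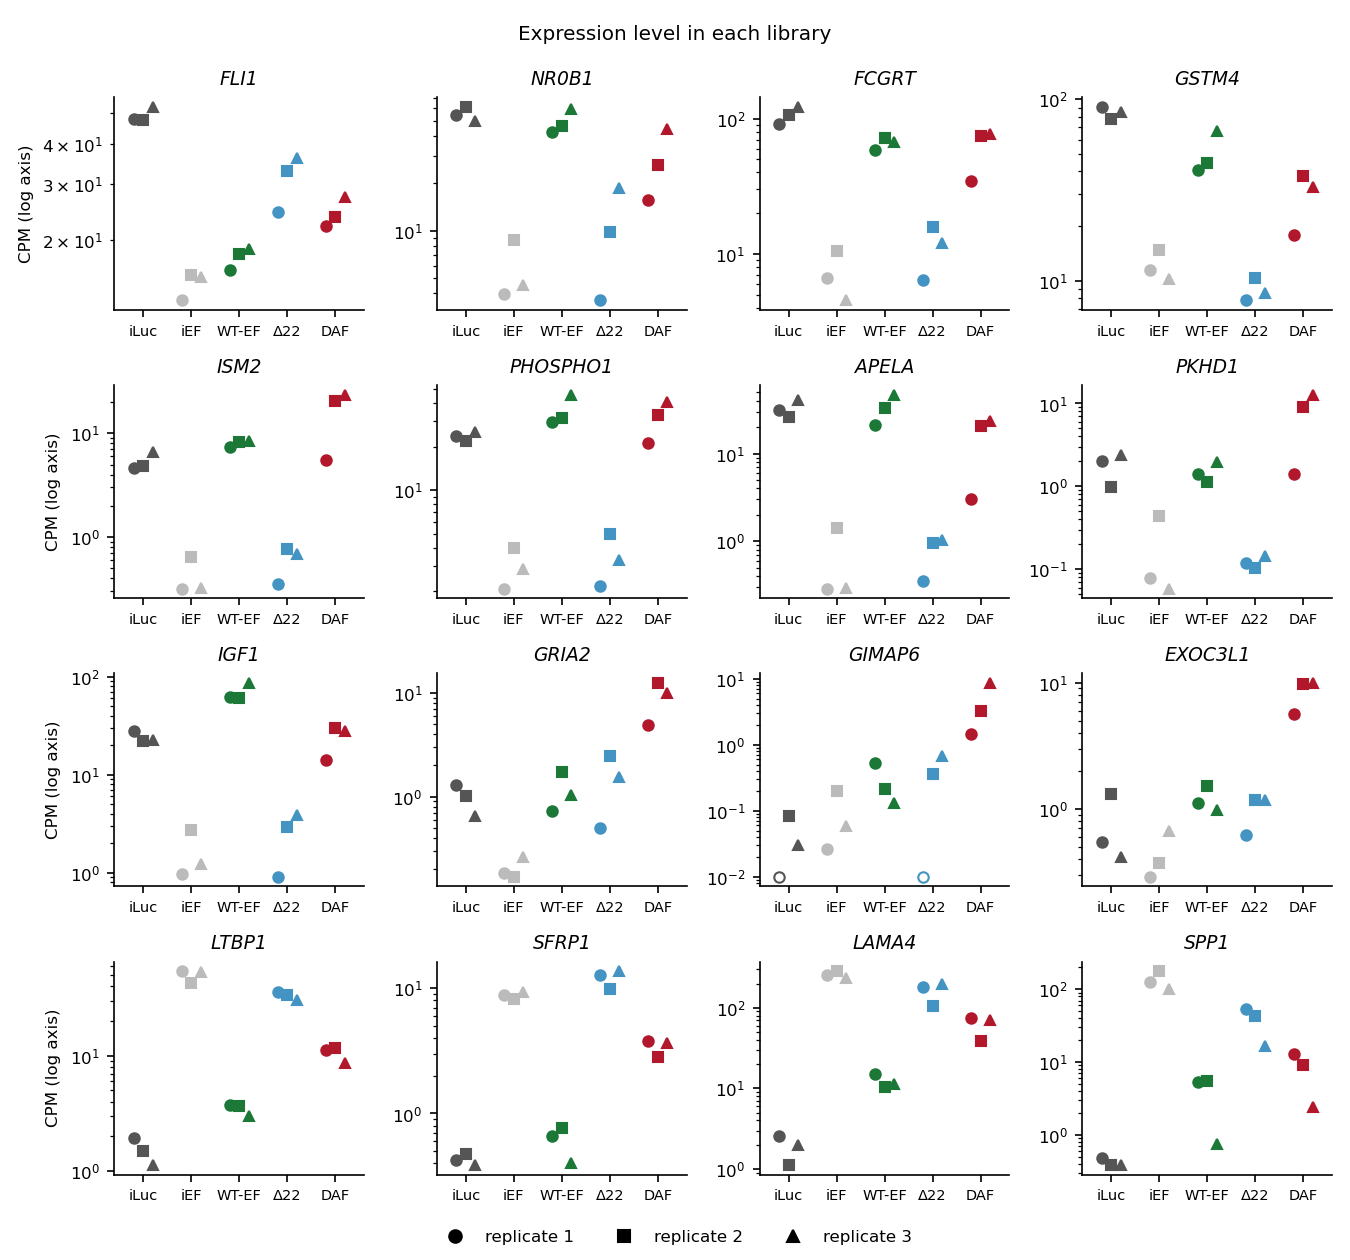
CPM on a log axis of 16 genes in the 15 libraries, by condition, with a marker shape for each replicate number and open markers at the bottom for libraries with no count. *ISM2*, *PHOSPHO1* and *APELA* are low in iEF and Δ22 and high in iLuc, WT-EF and DAF, *GRIA2*, *GIMAP6* and *EXOC3L1* are highest in DAF, and the 4 genes of the last row are lower in DAF than in Δ22.

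Of the other genes with large increases several act in neurons, and *PKHD1*, *SV2B* and *RIMBP2* have no such run within 5 kb of the start. *PKHD1* (fibrocystin, of the primary cilium) had 0.117, 0.104 and 0.143 CPM in Δ22 and 1.41, 9.07 and 12.7 CPM in DAF libraries (log2 change 5.79, SE 0.76, adjusted p = 0.00124). Replicates 2 and 3 of DAF were above every iLuc and WT-EF library, whose means were 1.82 and 1.51 CPM. *SV2B*, a synaptic vesicle glycoprotein, had 0.176, 0.495 and 0.286 CPM in Δ22 and 1.83, 15.9 and 19.4 CPM in DAF libraries (log2 change 5.07, SE 0.61, adjusted p = 0.000729). *RIMBP2*, which ties calcium channels to vesicle release sites, had 0.147, 0.339 and 0.250 CPM in Δ22 and 1.41, 4.67 and 4.36 CPM in DAF libraries (log2 change 3.73, SE 0.31, adjusted p = 4.24e-05). For both, all DAF libraries were above all Δ22 libraries. *GABRA4*, a GABA receptor subunit, rested on 5, 2 and 5 counts in Δ22 and 13, 219 and 402 counts in DAF libraries, and *NSG2*, a neuronal vesicle protein, on 4, 5 and 0 against 9, 187 and 106 counts. Both passed the test (adjusted p = 0.00282 and 0.00997), but their fold changes are poorly set at such counts. *SERPINB13* (2, 7 and 1 against 10, 93 and 202 counts) and *ADGRA1* (2, 12 and 0 against 14, 173 and 112 counts) were of the same kind, with runs of 6 and 11 GGAA repeats. *MAP7D2*, a microtubule-binding protein, rose by a log2 change of 3.49 (SE 0.55), *MUC19*, a gel-forming mucin, by 3.52 (SE 0.52) and *SLC15A2*, a peptide transporter, by 3.30 (SE 0.35), with adjusted p-values between 0.000337 and 0.00526. *CHORDC1*, a co-chaperone of HSP90, showed a small and even increase, from 183, 205 and 166 CPM to 294, 341 and 313 CPM (log2 change 0.78, SE 0.08, adjusted p = 0.000337).

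Reported EWS/FLI-activated targets, a list of 47 tested genes collected for this comparison, had 11 members higher and none lower, with a median log2 change of 0.50. Over all tested genes 0.948% were higher and 0.379% lower. *FCGRT* and *GSTM4* are among the 11, and the study named them as rescued by DAF from this same RNA-seq, so the list is partly drawn from these data. The 6 libraries alone called 25 higher and 3 lower, beside 4.91% and 4.64% of all genes. *FCGRT*, the neonatal Fc receptor, had 6.45, 16.0 and 12.1 CPM in Δ22 and 34.6, 74.7 and 77.1 CPM in DAF libraries (log2 change 2.44, SE 0.26, adjusted p = 0.000337). *GSTM4*, a glutathione transferase, had 7.77, 10.4 and 8.50 CPM in Δ22 and 17.9, 37.8 and 32.7 CPM in DAF libraries (log2 change 1.70, SE 0.22, adjusted p = 0.00112), though near-identical GSTM genes could split its reads. Both had no overlap between groups, and their iLuc means were 106 and 84.9 CPM. *IGF1*, the growth factor ligand of IGF1R, had 0.908, 2.89 and 3.89 CPM in Δ22 and 14.2, 30.2 and 28.2 CPM in DAF libraries (log2 change 3.27, SE 0.37, adjusted p = 0.000404), beside iLuc and WT-EF means of 24.1 and 69.5 CPM. *PRKCB*, a protein kinase C, rose from 24.6, 63.8 and 62.5 CPM to 112, 222 and 220 CPM (log2 change 1.90, SE 0.25, adjusted p = 0.00143), and its iLuc mean of 467 CPM was higher still. Of the metalloreductases, *STEAP2* (log2 change 1.42, adjusted p = 0.00109) and *STEAP1* (0.61, adjusted p = 0.00939) rose. So did *KDSR* of sphingolipid synthesis (0.79, adjusted p = 0.00301) and the developmental transcription factors *PAX7* (1.58, adjusted p = 0.0301) and *FEZF1* (1.46, adjusted p = 0.0490).

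*NR0B1*, an orphan nuclear receptor and a main microsatellite target, had 3.60, 9.78 and 18.7 CPM in Δ22 and 15.7, 26.1 and 44.4 CPM in DAF libraries. Within each replicate set DAF was higher, but the groups overlapped, and the log2 change of 1.49 (SE 0.36) had an adjusted p of 0.0610 in the 15 libraries and 9.06e-10 in the 6. *NKX2-2*, a homeobox transcription factor, had 1.05, 0.991 and 0.572 CPM in Δ22 and 0.738, 1.27 and 0.771 CPM in DAF libraries (log2 change 0.07, SE 0.27, adjusted p = 0.973), beside a mean of 5.23 CPM in iLuc. *GLI1*, the transcription factor of Hedgehog signalling, had 5, 20 and 9 counts in Δ22 and 3, 37 and 12 counts in DAF libraries (adjusted p = 0.820), beside a mean of 6.92 CPM in iLuc. *SOX2* had 49.6, 55.6 and 91.1 CPM in Δ22 and 45.3, 49.8 and 60.6 CPM in DAF libraries (log2 change -0.31, SE 0.17, adjusted p = 0.620, or 0.0234 in the 6 libraries), lower in DAF within each replicate set. None of the *HOXD* genes from *HOXD1* to *HOXD13* that were tested passed, with log2 changes between 0.07 and 0.59 and adjusted p-values of at least 0.524. *HOXD13* for example had 12.8, 16.6 and 13.7 CPM in Δ22 and 15.9, 17.8 and 17.6 CPM in DAF libraries, beside 37.9 CPM in iLuc.

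A group of the higher genes was above every other condition. For 40 of the 273 (14.7%), each of the 3 DAF libraries exceeded each of the other 12 libraries, which held for 339 of all tested genes (1.18%). The 273 were called higher than Δ22, whose libraries are among the other 12, so part of this excess follows from the call. For 103 of the 273 (37.7%), each DAF library was below each iLuc library, and for 83 (30.4%) above, beside 25.7% and 26.5% of all tested genes. Among the 40 was *EXOC3L1*, a relative of the exocyst, with 0.615, 1.17 and 1.18 CPM in Δ22 and 5.69, 9.73 and 9.93 CPM in DAF libraries (log2 change 3.10, SE 0.31, adjusted p = 0.000337). Its iLuc, iEF and WT-EF means were 0.762, 0.443 and 1.20 CPM. *GRIA2*, an AMPA receptor subunit, had 0.498, 2.48 and 1.54 CPM in Δ22 and 4.89, 12.5 and 9.93 CPM in DAF libraries (log2 change 2.64, SE 0.36, adjusted p = 0.00189), with means of 0.983 CPM in iLuc and 1.17 CPM in WT-EF. *GIMAP5* and *GIMAP6*, neighbouring GTPase genes known from lymphocytes, had log2 changes of 3.43 (SE 0.49, adjusted p = 0.00277) and 3.62 (SE 0.70, adjusted p = 0.0170). *GIMAP5* had 0.176, 0.678 and 0.500 CPM in Δ22 and 2.78, 4.59 and 7.41 CPM in DAF libraries, against 0.130 and 1.01 CPM on average in iLuc and WT-EF. *SCN3B*, a sodium channel subunit, had 0.557, 0.730 and 0.536 CPM in Δ22 and 1.48, 2.40 and 2.85 CPM in DAF libraries (log2 change 1.87, SE 0.32, adjusted p = 0.00902). *ZNF366*, a zinc finger gene, had 0, 2 and 2 counts in Δ22 and 4, 15 and 29 counts in DAF libraries (adjusted p = 0.0200), too few for a fold change.

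Some of these genes are mostly known from blood cells, so markers of other cell types were read beside them. Of 9 immune markers 6 had counts enough to be tested and none passed, and the summed level of the 9 was 1.93, 3.94 and 5.79 CPM in Δ22 and 3.13, 5.86 and 7.91 CPM in DAF libraries, higher in DAF within each replicate set. The 6 libraries called 2 of them higher, beside 4.91% of all genes. These were the monocyte receptor *CD14* (0.645, 0.730 and 2.54 CPM in Δ22 and 1.48, 1.93 and 3.69 CPM in DAF libraries, adjusted p = 0.381, or 0.00274 in the 6) and the integrin *ITGAM* (adjusted p = 0.646, or 0.0163 in the 6). *PTPRC*, the pan-leukocyte marker, had 0.205, 0.808 and 0.715 CPM in Δ22 and 0.316, 0.580 and 1.01 CPM in DAF libraries. The summed level of 7 endothelial markers was 38.8, 84.8 and 46.9 CPM in Δ22 and 55.6, 85.7 and 63.4 CPM in DAF libraries, again higher in DAF within each set, with most of it from *EMCN* and *KDR*. None passed in the 15 libraries. *EMCN*, an endothelial sialomucin, had 11.8, 44.4 and 10.9 CPM in Δ22 and 25.1, 56.2 and 29.3 CPM in DAF libraries (adjusted p = 0.104, or 9.31e-06 in the 6 libraries). *KDR* had 23.6, 33.7 and 23.3 CPM in Δ22 and 26.2, 23.1 and 20.7 CPM in DAF libraries. It was lower in DAF in sets 2 and 3, as were *TIE1* and *CDH5*, and 4 of the 7 had a positive fitted change. The part of these markers in the genes above was not tested. Of 6 tested epithelial markers the tight junction gene *CLDN4* was lower in DAF (log2 change -1.27, SE 0.23, adjusted p = 0.0110).

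Of the higher genes, 20 (7.33%) were repressed by endo-EF, being lower in iLuc than in iEF, beside 22.1% of all tested genes, and 14 of these 20 were among the 40 above. WT-EF repressed 14 of the 273 (5.13%), beside 17% of all tested genes. With each contrast called in its own 6 libraries, the shares of the higher genes that were repressed were 27.8% by endo-EF and 14.5% by WT-EF, beside 23.6% and 13.8% of all genes. *CEACAM1*, a cell adhesion molecule, had 7.36, 9.57 and 13.0 CPM in Δ22 and 25.6, 25.4 and 56.4 CPM in DAF libraries (log2 change 1.83, adjusted p = 0.0194), beside 7.13 CPM in iEF and 0.331 CPM in iLuc. *LAPTM5*, a lysosomal membrane protein of leukocytes, had 1.79, 2.87 and 2.32 CPM in Δ22 and 6.36, 11.1 and 12.1 CPM in DAF libraries (log2 change 2.07, adjusted p = 0.000555), beside 0.0490 CPM in iLuc. *ELN*, the elastin gene, had 40.5, 32.9 and 52.6 CPM in Δ22 and 75.2, 70.1 and 108 CPM in DAF libraries (log2 change 1.01, SE 0.15, adjusted p = 0.00301), beside 26.6 CPM in iLuc and 13.8 CPM in WT-EF. *DAB2*, an endocytic adaptor, had 77.2, 83.4 and 110 CPM in Δ22 and 152, 161 and 206 CPM in DAF libraries (log2 change 0.94, SE 0.16, adjusted p = 0.00878). None of these 4 genes had overlapping groups. All but *ELN* were picked with their values in view.

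The genes lower in DAF included extracellular matrix, protease and signalling genes, each of which was also low in iLuc and WT-EF. *LTBP1*, which stores latent TGF-β in the matrix, had 35.7, 33.5 and 30.4 CPM in Δ22 and 11.1, 11.6 and 8.58 CPM in DAF libraries (log2 change -1.67, SE 0.14, adjusted p = 4.24e-05). Its mean was 49.7 CPM in iEF and 1.53 CPM in iLuc, so DAF stood between them. *SFRP1*, a secreted inhibitor of Wnt signalling, had 12.7, 9.88 and 13.7 CPM in Δ22 and 3.76, 2.82 and 3.66 CPM in DAF libraries (log2 change -1.82, SE 0.19, adjusted p = 0.000337). *SPP1* (osteopontin) was the only called member of 24 reported EWS/FLI-repressed targets, where 0.379% of all tested genes were lower. It had 53.9, 43.2 and 16.9 CPM in Δ22 and 12.9, 9.21 and 2.45 CPM in DAF libraries (log2 change -2.28, SE 0.33, adjusted p = 0.00285). The groups did not overlap for any of the 3. *LAMA4*, a laminin chain of basement membranes, had 181, 104 and 195 CPM in Δ22 and 74.5, 38.4 and 70.1 CPM in DAF libraries (log2 change -1.40, SE 0.20, adjusted p = 0.00252). *PLAT*, the tissue plasminogen activator, had 672, 447 and 1178 CPM in Δ22 and 234, 190 and 327 CPM in DAF libraries (log2 change -1.58, SE 0.30, adjusted p = 0.0168). Lower in DAF were *F2RL1*, a protease-activated receptor, *LOXL4*, a matrix crosslinking oxidase, *AQP1*, a water channel, *GALNT5*, a glycosyltransferase, and *GFPT2* of hexosamine synthesis. Their log2 changes were between -1.73 and -1.42. Against iEF, *LOXL4* had log2 changes of -0.083 in DAF (adjusted p = 0.931) and 1.498 in Δ22 (adjusted p = 0.0563). *GFPT2* had -0.599 (adjusted p = 0.278) and 0.834 (adjusted p = 0.237), so neither was called lower in DAF than in iEF. *F2RL1*, *AQP1* and *GALNT5* were, by log2 changes of -1.847, -3.812 and -2.808. In Δ22 against iEF these had -0.121 (adjusted p = 0.930), -2.390 (adjusted p = 0.00197) and -1.385 (adjusted p = 0.00617). *AQP1* and *GALNT5* were thus already lower without the EWS domain. So were *SPP1* (-2.023 in Δ22, adjusted p = 0.00823) and *LTBP1* (-0.590, adjusted p = 0.0419), which had -4.306 and -2.264 in DAF. *RFX8* fell by 1.47 on the log2 scale, from 124, 130 and 140 counts to 45, 45 and 47 counts.

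Decreases that placed DAF below every other condition were seen for 14 of the 109 lower genes (12.8%), against 401 of all tested genes (1.39%). The 109 were called lower than Δ22, which is among those conditions, so part of this excess follows from the call. *CTSC*, the lysosomal protease cathepsin C, had 89.5, 73.9 and 110 CPM in Δ22 and 45.1, 39.6 and 49.0 CPM in DAF libraries (log2 change -1.02, SE 0.12, adjusted p = 0.000726), beside 78.5 CPM in iLuc and 67.0 CPM in WT-EF. *WDR35*, of transport in cilia, had 41.2, 44.4 and 53.5 CPM in Δ22 and 25.5, 28.5 and 31.5 CPM in DAF libraries (log2 change -0.70, SE 0.09, adjusted p = 0.00135), beside 104 CPM in iLuc. *FRMD5*, a cell junction gene, went from 17.3, 14.4 and 21.9 CPM to 8.15, 8.44 and 9.26 CPM (log2 change -1.04, SE 0.13, adjusted p = 0.000747) and reached the iLuc mean of 8.95 CPM.

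Repressed targets that the study followed did not pass in the 15 libraries. *IGFBP3*, a carrier of IGFs, had 6145, 3007 and 4270.4 CPM in Δ22 and 3766, 2172 and 2695 CPM in DAF libraries (log2 change -0.63, SE 0.24, adjusted p = 0.343, or 3.48e-09 in the 6 libraries). *LOX*, a collagen crosslinking oxidase, had 344, 256 and 311 CPM in Δ22 and 244, 153 and 173 CPM in DAF libraries (log2 change -0.70, SE 0.32, adjusted p = 0.469, or 2.44e-08 in the 6 libraries). Both were lower in DAF within each replicate set, and the iLuc means were 29.4 and 3.46 CPM. *TGFBR2*, a TGF-β receptor, had 140, 163 and 229 CPM in Δ22 and 141, 139 and 193 CPM in DAF libraries (log2 change -0.16, SE 0.15, adjusted p = 0.821). The list of repressed targets had a median log2 change of -0.12. The 6 libraries called 2 of its members higher and 9 lower, beside 4.91% and 4.64% of all genes.

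Among signalling and adhesion lists, calls went both ways. Their counts stand beside 0.948% higher and 0.379% lower over all tested genes, or 4.91% and 4.64% in the 6 libraries. Axon guidance genes had 5 of 67 higher and 2 lower, or 14 and 12 in the 6 libraries, with a median log2 change of 0.01. The semaphorin *SEMA5B* (3.52, adjusted p = 0.0142) and the ephrin receptor *EPHB3* (2.72, adjusted p = 0.000726) rose most. *SEMA5B* rested on 3, 8 and 9 counts in Δ22 and 9, 112 and 141 counts in DAF libraries. Its groups overlapped in CPM, and its fold change is poorly set. The slit receptor *ROBO2* rose from 27.8, 52.5 and 34.4 CPM to 78.3, 129 and 80.3 CPM (1.33, adjusted p = 0.000337), and *EPHA3* and *EPHB4* by 0.44 and 0.33. *SEMA7A* (-1.26, adjusted p = 0.00946) and *EPHA4* (-0.59, adjusted p = 0.0300) were lower in DAF than in Δ22. Against iEF, *EPHA3* had log2 changes of -0.206 in DAF (adjusted p = 0.168) and -0.643 in Δ22 (adjusted p = 0.00421). *EPHA4* had -0.148 (adjusted p = 0.547) and 0.447 (adjusted p = 0.0975), so neither was called in DAF against iEF. The other called axon guidance genes were, in the same direction as against Δ22. Neuropeptide and hormone genes had 3 of 39 higher, and these were the ligand *NPY* and its receptors *NPY1R* and *NPY5R*, and 1 lower, the granule protein *CHGB* (-0.80, adjusted p = 0.0396). *NPY* had 3.37, 1.98 and 1.25 CPM in Δ22 and 7.42, 6.41 and 3.86 CPM in DAF libraries (log2 change 1.45, adjusted p = 0.0274). *NPY1R* had 9.23, 22.01 and 13.97 CPM in Δ22 and 32.4, 57.6 and 50.7 CPM in DAF libraries (log2 change 1.66, adjusted p = 0.00624). *NPY5R* had 0.821, 2.11 and 2.36 CPM in Δ22 and 4.39, 7.54 and 8.75 CPM in DAF libraries (log2 change 1.98, adjusted p = 0.00932). The 2 receptor genes overlap at their ends, and the part of this in their counts was not tested.

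Ion channel calls were 7 higher and 1 lower, where 71.5% of all called genes were higher. Over all tested genes 0.948% were called higher and 0.379% lower, and the counts of every list below stand beside these shares. Of 52 ligand-gated subunits 3 were higher and none lower, namely *GABRA4*, *GRIA2* and the kainate receptor *GRIK2* (log2 change 1.46, adjusted p = 0.00588). Of 33 voltage-gated sodium and calcium channel subunits 2 were higher and none lower, *SCN3B* and *CACNA1I*, the latter from 3, 4 and 3 to 7, 32 and 20 counts. Of 75 potassium channel subunits *KCNN1* (1.57, adjusted p = 0.0248) and *KCNE4* (1.03, adjusted p = 0.0322) were higher and *KCNMA1* (-0.98, adjusted p = 0.0309) was lower. The medians of these lists were 0.21, 0.25 and 0.16. The 6 libraries called 8, 8 and 11 members higher and 2, 2 and 5 lower, beside 4.91% and 4.64% of all genes. Solute carriers had 7 of 289 higher and 1 lower, the phosphate transporter *SLC20A1* (-0.56), and a median of 0.01. Among the higher carriers were the glucose transporter *SLC2A3* (0.60), the vitamin transporter *SLC5A6* (0.88) and the sodium-calcium exchanger *SLC24A3* (1.13, adjusted p = 0.00184). Of 61 cadherins *CDH11*, *CDH23* and *PCDH11X* were higher (0.64, 1.03 and 1.00) and *CDH13* was lower (-0.94), the last from 178, 136 and 139 to 103, 72.4 and 65.02 CPM. Of 41 integrin and laminin chains only *LAMA4* was called in the 15 libraries, while the 6 libraries called 3 higher and 16 lower. Of 47 collagen, fibronectin and matrix crosslinking genes 1 was higher (*ELN*) and 1 lower (*LOXL4*), or 11 and 19 in the 6 libraries. Of 33 glycolysis and hypoxia genes *SLC2A3* was higher and the carbonic anhydrase *CA12* lower (-1.28, adjusted p = 0.0374), and of 22 contractile genes calponin (*CNN1*) was lower, from 4.72, 3.49 and 4.36 to 1.48, 1.95 and 1.71 CPM (-1.29, adjusted p = 0.0207). Of 29 HOX genes *HOXB3* was lower (-0.52, adjusted p = 0.0417), and of 473 ZNF zinc finger genes 3 were higher and 1 lower.

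**Figure D2:**
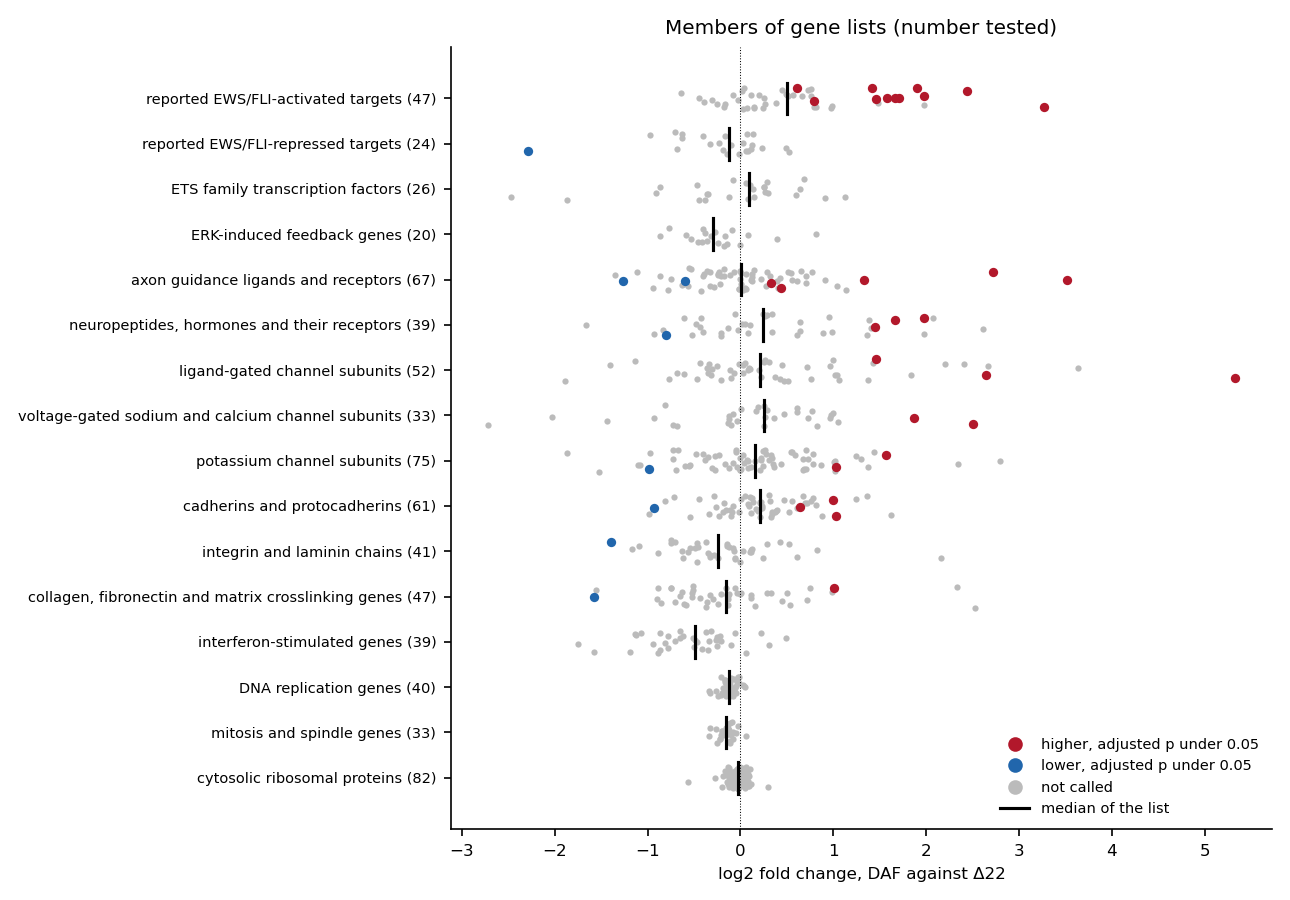
Log2 change in DAF against Δ22 of each tested member of 16 gene lists, with called members in red (higher) or blue (lower) and the list's median as a bar. The reported EWS/FLI-activated targets have 11 red points and a median of 0.50, while ribosomal proteins lie close to 0.

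No member was called in either direction among 26 ETS factors, 20 ERK-induced feedback genes, 40 DNA replication genes, 33 mitosis genes, 24 cholesterol synthesis genes, 26 YAP/TEAD targets and 82 ribosomal proteins, where 1.33% of all tested genes were called, so that few or no calls are the background in lists of this size. The 6 libraries called 4 higher and 7 lower both among the ETS factors and among the YAP/TEAD targets. Over all genes they called 4.91% higher and 4.64% lower, and the counts of the 6 libraries below stand beside these shares. The medians of the DNA replication and mitosis lists were -0.12 and -0.16, and the 6 libraries called 3 and 4 members lower and none higher. None of 39 interferon-stimulated genes passed either. Of them 35 had a negative change, the median was -0.49, and the 6 libraries called 19 lower and 3 higher. Positive changes were also few among the DNA replication (3 of 40), mitosis (1 of 33) and ERK feedback genes (3 of 20), beside 13596 of all 28793 tested genes. *MX2*, an antiviral GTPase, had 3.16, 6.83 and 102 CPM in Δ22 and 1.55, 3.43 and 21.998 CPM in DAF libraries (log2 change -1.75, SE 0.90, adjusted p = 0.565). Both groups were high in replicate 3 alone, and DAF was lower in each replicate set. The summed level of the 39 genes ran from 1756 to 9185 CPM in Δ22 and from 1930 to 5378 CPM in DAF libraries. The ERK feedback genes had 11 lower and 1 higher in the 6 libraries and a median of -0.30.

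Contrasts that share no library with DAF and Δ22 place these genes on the scale of EWS/FLI. Of the 273 higher genes, 202 (74.0%) were activated by endo-EF, that is higher in iLuc than in iEF, beside 19.5% of all tested genes, and 214 (78.4%) were activated by WT-EF, beside 12.9%. Of the 109 lower genes, 90 (82.6%) were repressed by endo-EF, beside 22.1%, and 95 (87.2%) by WT-EF, beside 17%. With each contrast called in its own 6 libraries, endo-EF activated 48.9% and WT-EF 46.5% of the higher genes, beside 20.7% and 10.2% of all genes, and they repressed 76.6% and 71.5% of the lower genes, beside 23.6% and 13.8%. The shares of higher genes in the opposite direction, 27.8% and 14.5%, were given above. In the first reckoning the shared genes were in turn 3.59% of the genes endo-EF activated, 5.78% of those WT-EF activated, 1.41% of those endo-EF repressed and 1.94% of those WT-EF repressed. In the contrasts that do share libraries with this one, the 273 higher genes had median log2 changes against iEF of 1.98 in DAF and 0.35 in Δ22, beside 1.90 in iLuc and 2.00 in WT-EF. The 109 lower genes had -1.01 in DAF and -0.18 in Δ22, beside -1.89 in iLuc and -1.46 in WT-EF.

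**Figure D3:**
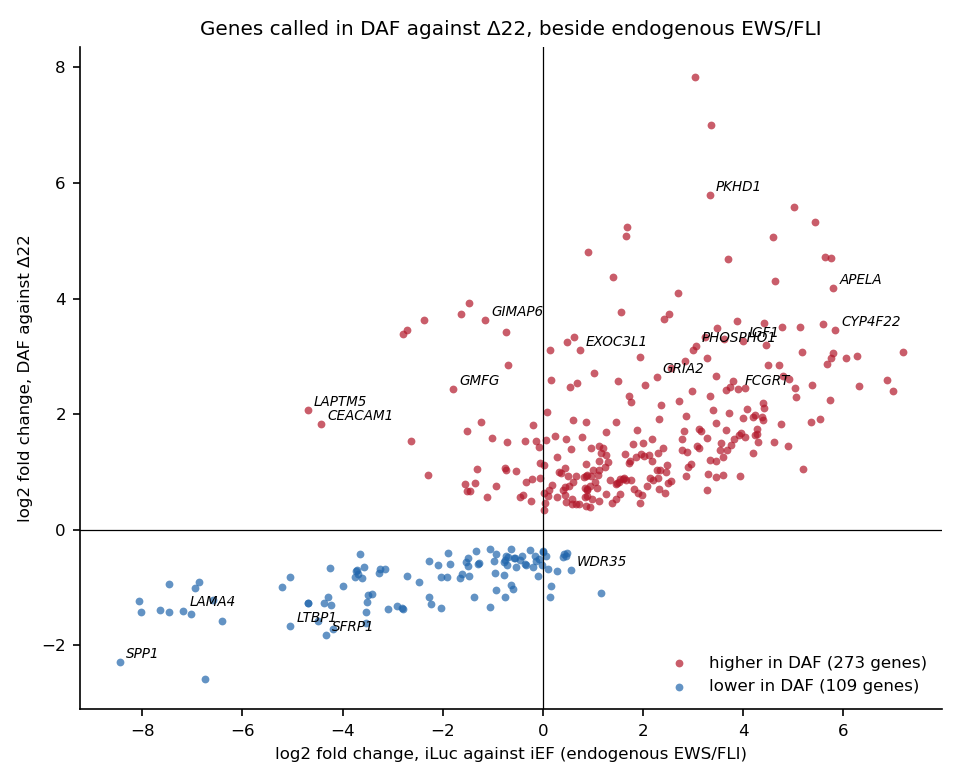
Each called gene by its log2 change in iLuc against iEF (x axis) and in DAF against Δ22 (y axis), red where higher and blue where lower in DAF. Most red points lie to the right and most blue points to the left, and *LAPTM5*, *CEACAM1* and *GMFG* are among 20 called genes that were higher in DAF and lower in iLuc than in iEF.

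Read the other way, over all genes that endo-EF changed more than 2-fold, the shift was small. Over 3036 such activated genes (10.5%) the median difference of DAF from Δ22 was 0.15, 0.13 and 0.19 in the 3 replicate sets on the log2(CPM + 0.1) scale (mean 0.16 ± 0.03, SD, n = 3), and 175 of them were higher and 1 lower. Over 3945 repressed genes (13.7%) it was -0.14, -0.17 and -0.20 (mean -0.17 ± 0.03, SD, n = 3), and 14 were higher and 68 lower. All tested genes had a mean of -0.01 ± 0.01. Each sign held in 3 of 3 sets, and the exact two-sided permutation of signs gave p = 0.25, the smallest that 3 sets allow.

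A run of at least 4 tandem GGAA on either strand within 5 kb of the annotated start was present for 46 of 268 higher genes with coordinates (17.2%, Wilson 95% interval 13.1 to 22.1%). It was present for 2 of 106 lower genes (1.89%, 0.519 to 6.62%) and for 1005 of 27879 tested genes (3.60%, 3.39 to 3.83%). Of genes that endo-EF activated but that were not called higher in DAF, 4.51% had a run (3.98 to 5.11%), a set not matched for strength of activation. Of the genes called higher in the 6 libraries alone, 9.68% had a run, and with at least 8 repeats required the share was 11.6% of the 268 and 1.27% of all. The longest stretch had a median of 11 repeats over the 46 genes and was upstream of the start in 27 and downstream in 19. These intervals treat genes as independent, which neighbours such as *CES1* and *CES1P1*, near-identical copies that could split reads, are not.

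**Figure D4:**
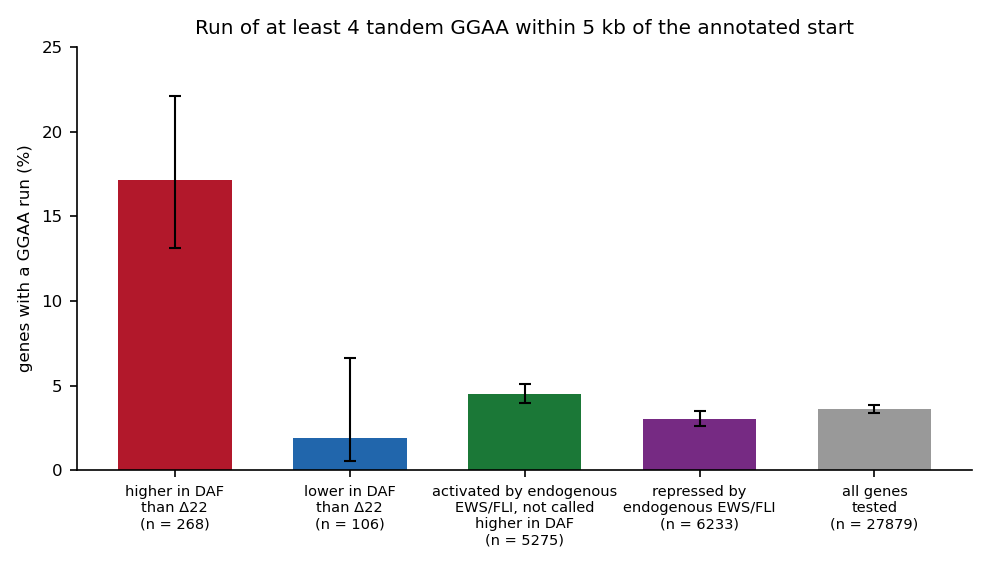
Share of genes, in percent, with a run of at least 4 tandem GGAA within 5 kb of the annotated start, for 5 sets of genes, with Wilson 95% intervals. The bar for the genes higher in DAF stands at 17.2% and that for all genes tested at 3.60%.

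The genes activated over 2-fold by endo-EF were split by the same property. The set comes from the contrast of iLuc with iEF, though in the fit of all 15 libraries. The 205 with a run had median differences of 0.40, 0.43 and 0.54 in the 3 replicate sets (mean 0.46 ± 0.07, SD, n = 3), and 36 of them (17.6%) were called higher in DAF. The 2734 without a run had medians of 0.15, 0.11 and 0.18 (mean 0.14 ± 0.03), and 136 (4.97%) were called higher. The difference was 0.25, 0.32 and 0.36 in the 3 sets (mean 0.31 ± 0.06, SD, n = 3, exact two-sided permutation p = 0.25, the smallest possible), with no overlap between the sets' medians. With the activated set called in the 6 iLuc and iEF libraries alone, an alternative chosen after seeing the data, the means were 0.48 ± 0.07 for 195 genes with a run and 0.15 ± 0.03 for 2611 without. Genes with a run were also more strongly activated by endo-EF, with a median log2 change of 3.43 against 2.07, and the part of this in the difference was not tested. Repressed genes had medians of -0.18 ± 0.02 with a run and -0.17 ± 0.03 without.

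**Figure D5:**
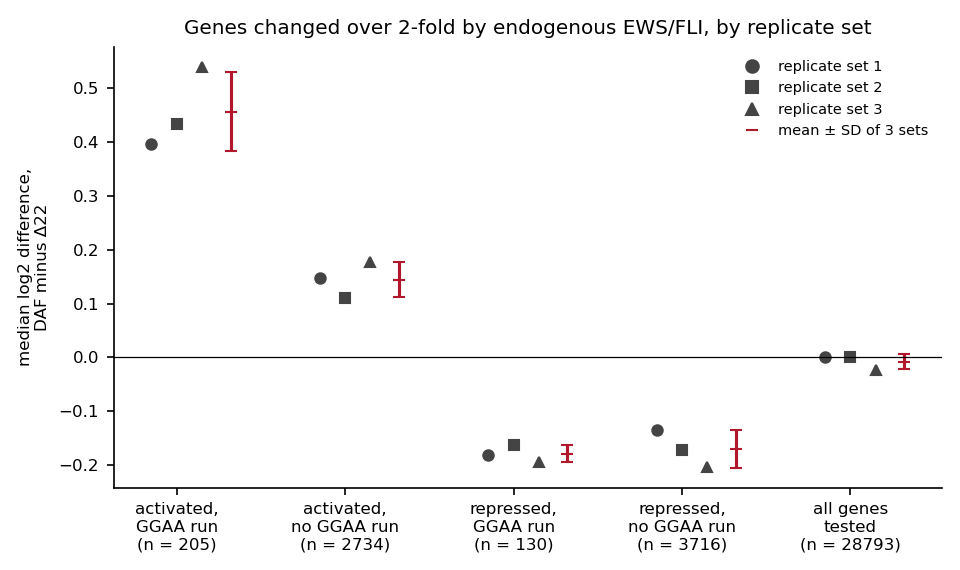
Median log2(CPM + 0.1) difference of DAF minus Δ22 in each of the 3 replicate sets, for the sets of endo-EF-regulated genes (over 2-fold), split by a GGAA run, and for all genes tested, with mean ± SD in red. Activated genes with a run lie between 0.40 and 0.54 and those without between 0.11 and 0.18.

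A short form of the single ETS site was counted in a much narrower window than the GGAA runs. The letters CCGGAA, searched on both strands in 300-base RefSeq promoter windows of GRCh38.p14 (250 bases before to 50 after the start), were found for 10.7% of 197 matched higher genes and 15.2% of 79 matched lower genes. They were found for 24.8% of 14697 matched tested genes and 17.6% of all 27305 windows. The study's own ETS site was ACMGGAARY over a longer stretch around the start, which this search does not cover. The sets were not matched for expression level or for the base composition of their promoters. These shares therefore do not say whether ETS sites take part.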

How the data were processed

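Paired-end reads were mapped by the authors to hg19 with STAR (2.5.1b in the submitters' processing notes) and assigned to genes by htseq-count, set to intersection-strict. The deposited counts are whole numbers without normalization, for 57820 gene identifiers, of which 43521 matched a symbol, and they were used for all values. The authors also deposited estimated counts, made from these by ComBat adjustment of each replicate set (27002 genes), which are decimal and were rounded and used in 1 alternative only. Their tables of fold changes and p-values were not used, nor were 3 columns of other samples.

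Libraries were grouped by their titles. edgeR 4.0.16 in R 4.3.3 (TMM, quasi-likelihood test) took all 15 libraries in a model of condition plus replicate number, over genes averaging at least 1 count, with Benjamini-Hochberg adjustment at 0.05 within each contrast. SE is the log2 change divided by the square root of F. The replicate number was kept as a block since, with 3 pairs, deviations of same-numbered DAF and Δ22 libraries from their group means correlated at r = 0.747, 0.711 and 0.780 over 13178 genes and differently numbered ones at -0.58 to -0.14. As each group was centred on its own mean, the negative values follow from the positive ones and add nothing separate. Replicates differed by more than counting noise (chi-square per gene 22.3 to 83.2). On simulated data for this contrast the 15-library fit called 73 of 100 genes changed 2-fold, 92 of 100 changed 4-fold and 19 unchanged ones among 28001, and the 6-library fit 68, 89 and 24 among 26795. The simulated counts had no replicate effect and the same dispersions in all conditions. They therefore cannot tell which fit suits the real libraries.

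The members and gene lists were chosen with earlier results of these data known. Named genes are *FLI1*, *EWSR1*, genes the study names, the 15 largest increases and 10 largest decreases and the 5 smallest p in each direction among called genes averaging at least 50 counts, and called list members. Others were named after their values were seen. GGAA runs were searched in GRCh37. Python 3.11.15 and scipy 1.17.1 were used. DESeq2 1.42.0 served for alternatives. Intervals and floors of 3 counts cover counting error only.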

Additional observations from a re-analysis of the deposited data

How the results depend on the processing

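The counts of called genes moved with the settings. Genes higher in DAF numbered 273 and genes lower in DAF 109 (192 and 39 over 2-fold), and DESeq2 size factors gave 279 and 103. With no filter on low counts there were 663 and 551 (382 and 170 over 2-fold), by DESeq2's Wald test 470 and 316 (73 lower over 2-fold), and on ComBat-adjusted counts 448 and 307. Without the WT-EF libraries 325 were lower (83 over 2-fold), and with only iEF, Δ22 and DAF libraries 501 were higher and 405 lower (88 over 2-fold). A test against a 2-fold change called 40 and 2. The 6 libraries alone called 1411 and 1333 (432 and 179 over 2-fold), and 170 and 175 list members instead of 38 and 13. Endo-EF and WT-EF then activated 48.9% and 46.5% of the higher genes, WT-EF repressed 71.5% of the lower genes, and 9.68% of the higher genes had a GGAA run. With at least 8 repeats required, that share was 11.6% in the 15-library fit. The cause of these shifts was not tested.

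Without the replicate block, genes higher in DAF numbered 147 and genes lower in DAF 30 (118 and 15 over 2-fold) in the 15 libraries, and 0 and 0 (0 and 0 over 2-fold) in the 6 by edgeR's quasi-likelihood test, where 2174 genes had an unadjusted p under 0.05. Leaving out libraries or whole replicate sets gave 75 to 321 higher and 9 to 186 lower in the 15-library fit (64 to 212 and 6 to 58 over 2-fold), the lowest counts without replicate set 2. The 6 libraries gave 1325 and 1359 without replicate set 1 (457 and 255 over 2-fold), 1209 and 1309 without set 2 (438 and 227) and 1090 and 1146 without set 3 (339 and 140), each with fewer samples.

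Of 97 named genes 79 were called, and none of their 1808 alternative values changed direction, but 476 missed the threshold. All 79 were called in the 6 libraries. Reversals were confined to genes that were not called. With 1 library or set left out of the 15, the log2 change of *NKX2-2* ran from -0.157 to 0.379, of *GLI1* from -0.184 to 0.868, of *TGFBR2* from -0.322 to 0.0221 (above 0 without Δ22 replicate 3), of *HOXD1* from -0.291 to 0.281, of *HOXD3* from -0.0778 to 0.419, of *HOXD4* from -0.0283 to 0.364 and of *HOXD8* from -0.0245 to 0.225. In the 6 libraries *NKX2-2* was -0.0783 and -0.0127 without sets 2 and 3, and *HOXD1*, *HOXD3* and *HOXD4* were -0.277, -0.0775 and -0.0177 without set 1. The 6-library fits without a set, the GGAA alternatives and the endo-EF sets called in their own 6 libraries, whose medians kept their sign, were chosen after seeing the data. All values are from 1 cell line with 3 libraries a condition, and genes of a few counts, such as *GABRA4* and *NSG2*, have fold changes that this depth does not set.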
